A study of Mus musculus with 4 samples.

Results

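The hair follicle placode genes described here were 10 genes, taken with every probe set that the array platform assigns to them by symbol: the transcription factors Lhx2 and Sox9, the WNT genes Wnt10b, Lef1 and Dkk4, the ectodysplasin receptor Edar, the Hedgehog genes Shh, Ptch1 and Gli1, and Bmp2. They had 17 of the 45037 probe sets that are not controls. Expression was measured on 4 arrays, each of basal cells isolated from E16.5 mouse epidermis with a cell sorter, using α6 integrin together with a YFP reporter that marks cells in which Cre has acted. In cKO embryos (n = 2) both alleles of Srf, which encodes serum response factor, were floxed, the YFP reporter was homozygous at ROSA26 and K14-Cre was present. Het embryos (n = 2) carried the same Cre and reporter with 1 floxed and 1 unfloxed Srf allele. The submitters' design text calls the het group WT, but no group without Cre or without a floxed allele was analysed here. K14-Cre uses the promoter of keratin 14, which is active in basal epidermis and in the follicle epithelium that grows from it.

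The sample titles hold a number that occurs once per group: Ko_1210 and het_1210 share the first number, and KO_1261 and het_1261 the second (the cKO arrays are written cKO_1210 and cKO_1261 below). Paired values, of arrays or of differences within the numbers, are given with the first number before the second. No label says what the number marks, or whether a sample was 1 embryo or a pool, so the spread between samples may be technical in part.

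Hair placodes are local thickenings of the embryonic epidermis. WNT signalling in the epidermis starts them, the receptor EDAR and its NF-κB pathway stabilise them, and secreted inhibitors such as DKK4 space them. SHH made by the placode drives the downgrowth of the follicle. In mouse back skin follicles form in successive waves, so that at this stage early follicles have already grown down while late ones are still placodes.

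Values are MAS5 signals on a linear scale, scaled by the authors to the same trimmed mean on each array, and differences are cKO minus het on the scale log2(signal + 1). A probe set was tested if its mean log2 signal over the 4 arrays was above the median of all probe sets, which corresponds to a signal of 65.9. Of the 17 probe sets 13 passed this filter, at least 1 for each gene, and the other 4 (1 each of Shh, Sox9, Edar and Ptch1) were dim. A probe set's level is not comparable with that of another probe set.

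The sort and the labels were checked first. The keratins and integrins of basal cells were bright: Krt5 had signals of 50933 and 35314 in cKO and 57958 and 36834 in het, and the α6 integrin gene Itga6 had 9219 and 10725 in cKO and 6609.7 and 12525 in het. These values do not show that the sort was pure, since some markers of other cells, given below, were bright too. The dermal fibroblast marker Dcn had 21841 and 18828 in cKO and 19907 and 19073 in het. The brighter Srf probe set had 47.9 and 80.4 in cKO and 834 and 1108 in het, so the transcript was low in both cKO arrays. Arrays of the same number resembled each other: their deviations from the group means correlated at 0.755 across tested probe sets, and spiked-in poly-A controls were 2.52-fold brighter in the first number than in the second in cKO and 2.45-fold in het. Differences are therefore given within each number as well, where each group has 1 array and there is no test.

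Among the 13 tested placode probe sets that of Lhx2 differed most between the genotypes, and no other member passed a test in either fit. Without a block for the number, limma (two-sided, Benjamini-Hochberg adjustment over 22518 tested probe sets, threshold 0.05) passed 0 of the 13 placode probe sets and 0 of all probe sets (0%). At an unadjusted p under 0.05 it had 0 of the 13 and 108 of all (0.480%). With the number as a block it passed 1 of the 13, Lhx2, against 194 of all tested probe sets (0.862%), of which 112 were lower in cKO (0.497%). The brighter Srf probe set had the lowest p of all tested without the block (limma, unadjusted p = 2.03e-04) and still did not pass. With the block it passed (limma, adjusted p = 1.18e-12). Not passing without the block is therefore no sign that a member was unchanged.

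Lhx2, a LIM-homeodomain transcription factor of placode and follicle progenitor cells, had signals of 254 and 184 in cKO and 807 and 310 in het (the first and then the second number). Both cKO arrays lay below both het arrays, and het_1210 stood highest. The group means were 219 ± 49.3 in cKO and 558.5 ± 351 in het (SD, n = 2 each), so the het mean was 2.55-fold higher. The log2 difference was -1.21 ± 0.54 (SE, no block), with -1.66 within the first number and -0.75 within the second number. In the limma fit without a block the unadjusted p was 0.0758 and the adjusted p was 1. With the block Lhx2 fell by 1.21 ± 0.25 (SE, adjusted p = 0.00587, limma). This difference was the 140th lowest of 22518 tested, at the percentile 0.622. It was more than 1.5-fold lower in cKO within both numbers, which held for 1 of the 13 placode probe sets and for 1.54% of all tested. The call with the block ended without the variance trend (adjusted p = 0.736), with no filter on signal (0.194) and with median centring (0.0538). Without het_1210 the difference was -0.52, and without het_1261 it was -1.89. In sorted cells measured in bulk, fewer cells of a type and less RNA per cell cannot be told apart, which applies to every value here.

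Sox9, a transcription factor of the follicle's later stem cell and outer sheath lineage, had 2 tested probe sets. The first, 1451538_at, had 361 and 578 in cKO and 441 and 672 in het. The second, 1424950_at, had 235 and 298 in cKO and 258 and 426 in het. In both the groups overlapped while cKO was below het within each number, and the second number was above the first. The log2 differences were -0.25 ± 0.38 (-0.29 within the first number, -0.22 within the second number) and -0.32 ± 0.39 (-0.13 and -0.51), and neither passed in either limma fit (block adjusted p = 0.785 and 0.760). Their signs turned without het_1261 (0.05 and 0.04), and that of 1451538_at without cKO_1210 (0.09). The dim Sox9 probe set, 1433889_at, had 52.9 and 11.99 in cKO and 29.9 and 34.4 in het and was not tested.

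Start-site windows from RefSeq (GRCm38.p6, 250 bases before to 50 after an annotated start) were at hand for 5 of the 10 members, 9 windows in all. They were searched on both strands for the CArG box (the SRF site), the EGR site GCGTGGGCG and its variant GCGGGGGCG, the TCF/LEF core CTTTGA, the GLI site GACCACCCA, an NF-κB site and the LHX homeodomain core TAATTA. The 2 windows shown are those that hold a match for SRF or for the EGR factors. The Lhx2 window lies at chr2:38339031-38339330 on the plus strand, with the variant EGR letters (bases 183 to 191 of the window) in capitals. The Lef1 window lies at chr3:131112541-131112840 on the plus strand, at 1 of its 4 annotated starts, with the CArG box (bases 151 to 160) in capitals.
Lhx2: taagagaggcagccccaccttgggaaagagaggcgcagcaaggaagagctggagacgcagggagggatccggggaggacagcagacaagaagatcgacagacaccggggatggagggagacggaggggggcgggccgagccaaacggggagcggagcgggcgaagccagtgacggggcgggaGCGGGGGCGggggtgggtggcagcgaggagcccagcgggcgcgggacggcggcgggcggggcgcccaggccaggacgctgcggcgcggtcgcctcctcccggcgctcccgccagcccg
Lef1: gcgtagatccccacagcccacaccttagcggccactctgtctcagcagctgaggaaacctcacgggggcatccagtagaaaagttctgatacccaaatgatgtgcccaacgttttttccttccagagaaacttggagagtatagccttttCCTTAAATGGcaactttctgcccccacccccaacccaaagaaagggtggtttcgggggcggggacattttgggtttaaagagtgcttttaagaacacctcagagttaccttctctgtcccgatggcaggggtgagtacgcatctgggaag
The EGR variant was found in 2.91% of all 32851 windows of this length and a CArG box in 1.63%. The EGR site was in 0.612%, the GLI site in 0.253%, the NF-κB site in 1.63% and TAATTA in 5.29%. The EGR variant is all G and C. The Lhx2 window that holds it was 74.7% G and C, beside a median of 52.7% over all windows. Its share among windows of like content was not computed. The other Lhx2 window held no match, an Edar window and another Lef1 window held CTTTGA (16% of all windows), and the remaining windows, of Wnt10b, Ptch1 and Lef1, held none of the 7 patterns. No matches overlapped. A match shows only that these letters are present.

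Of the WNT genes, the ligand Wnt10b, which is switched on in the earliest placodes, was lower in cKO by a like amount within both numbers. It had signals of 281 and 342 in cKO and 347 and 434 in het. Both cKO arrays lay just below both het arrays, with 342 in cKO_1261 against 347 in het_1210. The log2 difference was -0.32 ± 0.31 (-0.30 and -0.34), and it did not pass (limma, block adjusted p = 0.735). Without het_1261 the difference was -0.16, and without cKO_1210 it was -0.18.

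Lef1, a DNA-binding partner of β-catenin that carries the WNT signal to its target genes, had a bright probe set, 1454734_at, with 4716 and 4174 in cKO and 3594 and 4921 in het. The cKO values lay between the het values. The difference was 0.08 ± 0.26, with opposite signs within the numbers (0.39 and -0.24). It was -0.15 without het_1210 and -0.01 without cKO_1210. The other Lef1 probe set, 1421299_a_at, had 370 and 548 in cKO and 369 and 565 in het, the closest match between the genotypes in the list. Its difference was -0.02 ± 0.37 (0.002 and -0.04). The sign turned to 0.10 under median centring, without het_1261 (0.29) and without cKO_1210 (0.26). Neither Lef1 probe set passed in either fit.

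Dkk4, a secreted WNT antagonist made in the placode as a target of WNT and EDA signals, separated the title numbers more than the genotypes. It had 567 and 262 in cKO and 966 and 348 in het. Both arrays of the first number were above both of the second, and within each number cKO was the lower one. The log2 difference of cKO minus het was -0.59 ± 0.64 (-0.77 and -0.41), while second minus first number was -1.11 in cKO and -1.47 in het. With the block the standard error was 0.21 and the unadjusted p 0.00885, and Dkk4 did not pass adjustment (limma, adjusted p = 0.276). Without het_1210 the difference was 0.15.

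Edar, the receptor for ectodysplasin that marks cells fated to the placode, had 1 tested probe set, 1419724_at, and in it both cKO arrays exceeded both het arrays. It had 493 and 510 in cKO and 467 and 409 in het. The difference was 0.20 ± 0.27 (0.08 and 0.32), and it did not pass (limma, block adjusted p = 0.861). The dim Edar probe set, 1447498_at, had 0.45 and 1.5 in cKO and 1.42 and 10.8 in het, lower in cKO within both numbers (-0.74 and -2.24), and was not tested. Without het_1261 the difference at 1419724_at was 0.10.

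**Figure D1:**
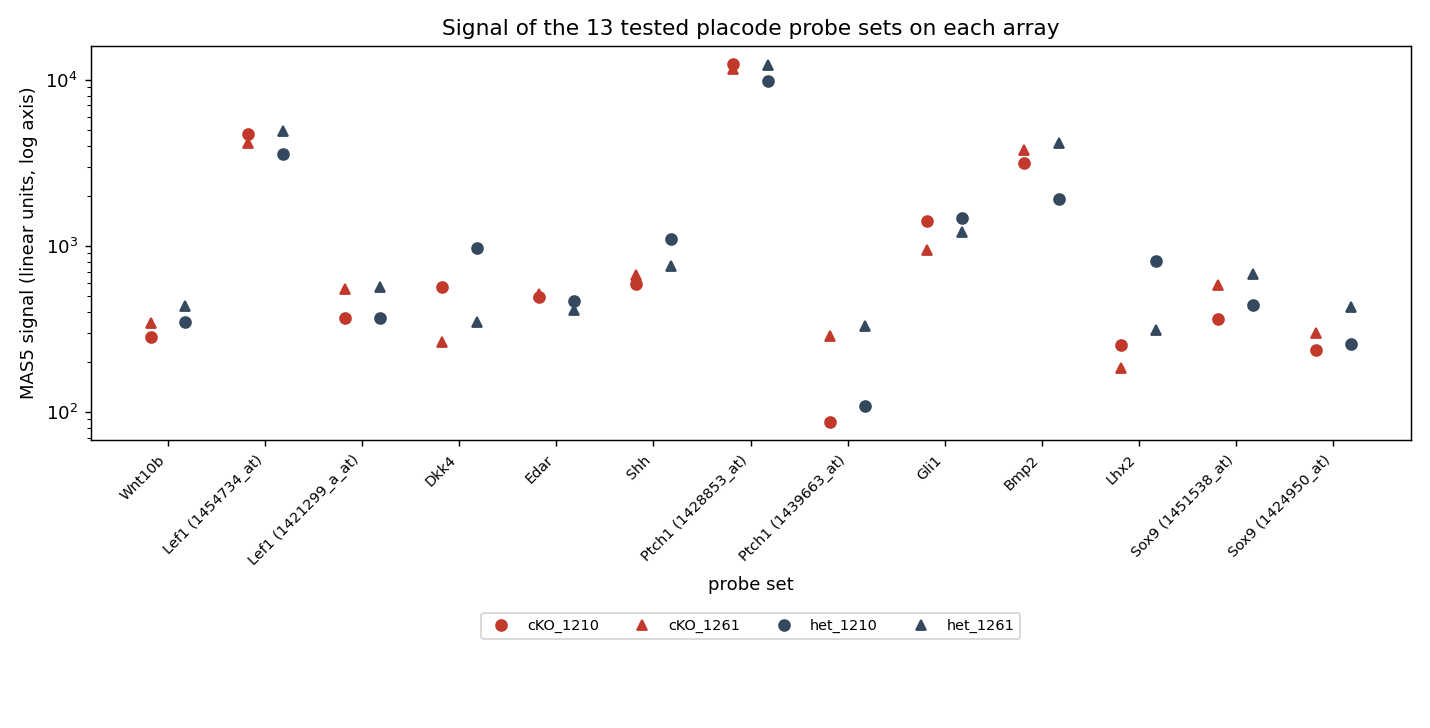
MAS5 signal (log axis) of the 13 tested placode probe sets on each array, cKO in red to the left of het in dark blue, circles for the first title number and triangles for the second. Lhx2 has its highest signal, 807, in het_1210, and Dkk4 and the dimmer Ptch1 probe set separate the numbers more than the genotypes.

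The plot of signals by array shows these 2 kinds of spread side by side: a gap between colours is the genotype, and a gap between circles and triangles is the number.

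Of the Hedgehog genes, the ligand had lower signals in both cKO arrays, while its receptor and target genes overlapped between the groups. Shh, the secreted signal of the placode's tip, had 593 and 666 in cKO and 1102 and 760 in het at probe set 1436869_at. The groups did not overlap, and the larger gap lay within the first number. The difference was -0.54 ± 0.29 (-0.89 and -0.19). With the block the standard error was 0.20 and the unadjusted p 0.00970, and it did not pass adjustment (limma, adjusted p = 0.288). Without het_1210 the difference was -0.27. The dim Shh probe set, 1427571_at, had 7.0 and 27.4 in cKO and 29.4 and 32.4 in het and was not tested.

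Ptch1, the Hedgehog receptor and itself a target of the pathway, was bright at 1428853_at, with 12468 and 11602 in cKO and 9785 and 12294 in het. The groups overlapped, and the difference of 0.13 ± 0.25 had opposite signs within the numbers (0.35 and -0.08). Without het_1210 it was -0.03. A second Ptch1 probe set, 1439663_at, had 86.6 and 286 in cKO and 108 and 328 in het, so it was brighter in the second number than in the first in both genotypes. Its difference was -0.25 ± 0.81 (-0.31 and -0.20). The sign turned without het_1261 (0.54) and without cKO_1210 (0.60).

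Gli1, a transcription factor whose transcript is a standard readout of Hedgehog signalling, had 1419 and 949 in cKO and 1470 and 1216 in het. The groups overlapped, since cKO_1210 was above het_1261. The difference was -0.20 ± 0.30 (-0.05 and -0.36), and 0.09 without cKO_1261. Neither Ptch1 probe set nor Gli1 passed in either fit (limma, block adjusted p = 0.851, 0.878 and 0.80). The third Ptch1 probe set, 1450824_at, lay between 10.3 and 74.6 on the 4 arrays and differed in opposite directions within the numbers.

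Bmp2, a BMP ligand made in the placode epithelium, had 3139 and 3791 in cKO and 1918 and 4184 in het. The cKO values lay between the het values, and het_1210 was lowest. The difference was 0.28 ± 0.42, with 0.71 within the first number and -0.14 within the second number, and -0.28 without het_1210. It did not pass (limma, block adjusted p = 0.648).

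**Figure D2:**
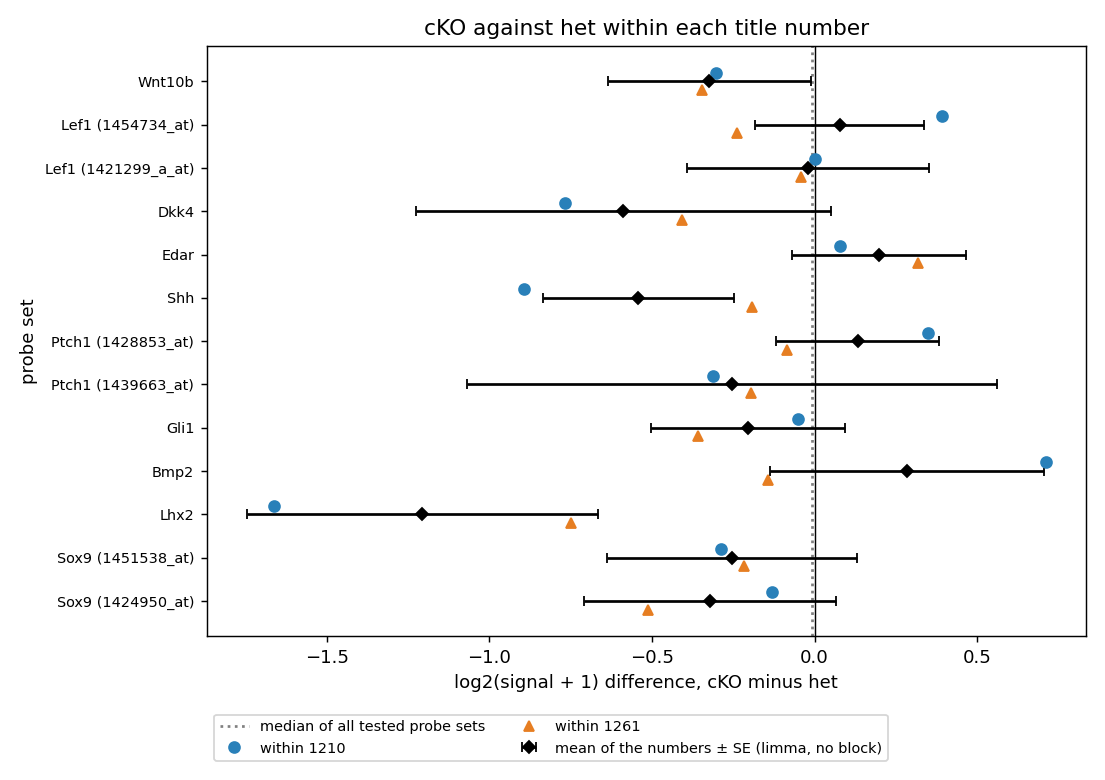
Difference in log2(signal + 1), cKO minus het, of each tested placode probe set within the first number (circles) and the second (triangles), with their mean (diamond) and its standard error from limma without a block (n = 2 per group). Lhx2 lies at -1.66 and -0.75, and 4 probe sets lie on opposite sides of 0 within the numbers.

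As the plot of differences within the numbers shows, 8 of the 13 tested placode probe sets were lower in cKO within both numbers (Lhx2, Shh, both of Sox9, Wnt10b, Dkk4, Gli1 and the dimmer of Ptch1), against 29.1% of all tested. Only Edar, 1 of the 13, was higher within both (26.3% of all), and 4 had opposite signs (44.6%). Both cKO arrays lay below both het arrays for 3 (Lhx2, Shh and Wnt10b; 10.4% of all) and above them for 1 (7.91%). On average 9 of the 13 were lower (51.0% of all), a count that was 5 without het_1261, 7 without cKO_1210, 8 without cKO_1261 and 11 without het_1210. In either direction 4 did not overlap (18.3%). The median difference of the 13 was -0.25, beside -0.01 for all tested probe sets, and it was -0.13 within the first number and -0.22 within the second number. Without het_1261 the median was 0.05, and without cKO_1210 it was -0.01. Probe sets of 1 gene are not independent, and the members were chosen with earlier results known, so the list as a whole was given no test.

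**Figure D3:**
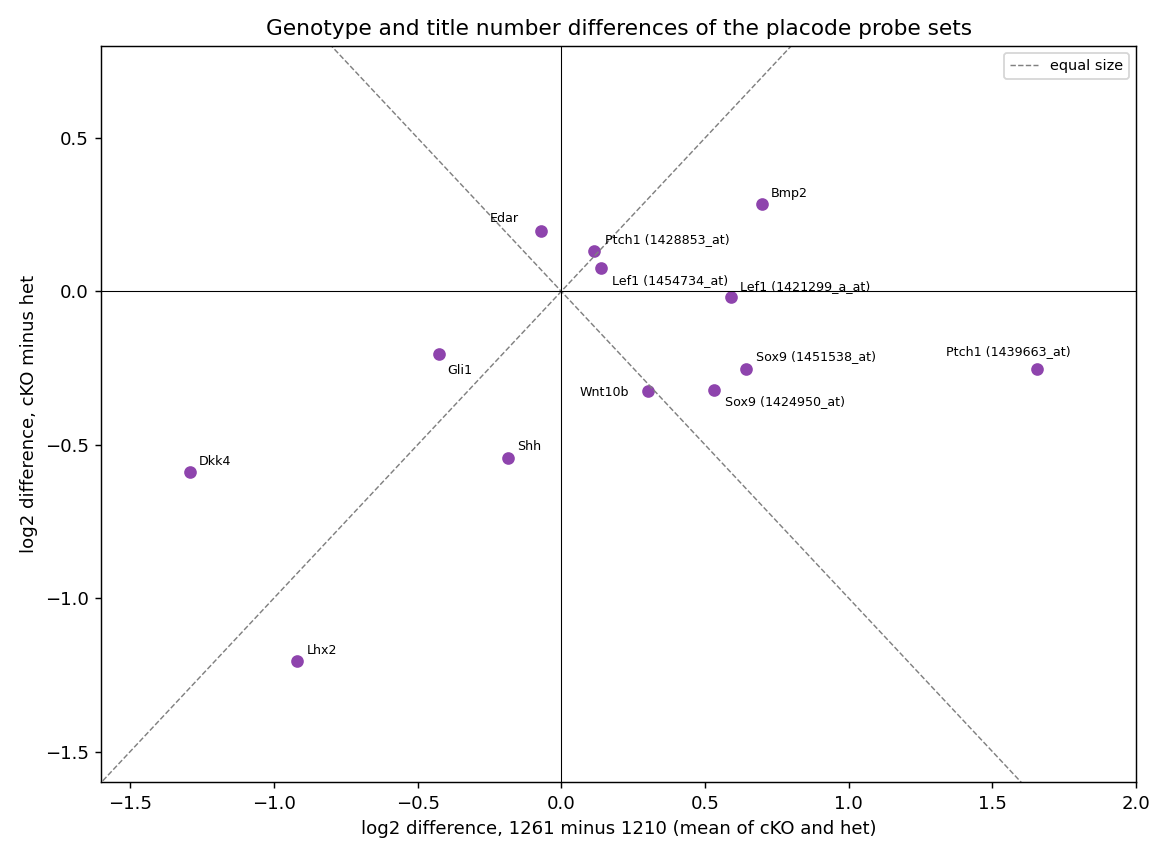
Mean log2 difference of each tested placode probe set between the title numbers (second minus first number, x axis) and between the genotypes (cKO minus het, y axis), with dashed lines where both are equal in size. In 8 of the 13 the difference between the numbers is the larger one, most of all for the dimmer Ptch1 probe set (1.65) and Dkk4 (-1.29).

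The plot of both differences sets genotype against title number. For 8 of the 13 placode probe sets the numbers differed more than the genotypes, beside 75.0% of all tested. The difference between the numbers had the same sign in cKO and in het for 9 of the 13, beside 77.8% of all. Lhx2 differed in both ways, with second minus first number at -0.46 in cKO and -1.38 in het. The median absolute difference of the 13 was 0.25 between genotypes and 0.53 between numbers, beside 0.18 and 0.40 for all tested.

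The wider pathways were described from lists of genes without the placode members, each gene by its brightest probe set. Over all 11055 tested genes 96 passed with the block (0.868%; 0.615% lower and 0.253% higher in cKO), 0 without it (0%), and 53.8% were lower in cKO on average.

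Of 39 tested WNT pathway genes 23 were higher and 16 lower in cKO, 0 passed in either fit, and the median was 0.05. Notum, a secreted enzyme that inactivates WNT ligands, had 46.2 and 33.4 in cKO and 111 and 121 in het, a difference of -1.54 ± 0.47 (-1.24 and -1.83). Nkd1, an intracellular inhibitor that WNT signalling induces, differed by -0.86 ± 0.52 (-0.83 and -0.88), with 71.4 and 44.2 in cKO and 128 and 82.3 in het. Wnt16, a WNT ligand, had 503 and 611 in cKO and 333 and 370 in het, a difference of 0.66 ± 0.28 (0.60 and 0.72). The groups did not overlap, with cKO lower, for 6 of the 39 (10.9% of all genes) and, with cKO higher, for 5 (8.18%), these 3 among them. They were the largest differences of the list with 1 sign within both numbers, and none passed (limma, block adjusted p = 0.215, 0.627 and 0.182). Axin2, the usual WNT reporter gene, named after its values were seen, differed by 0.02, with opposite signs within the numbers (0.34 and -0.29).

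Of 15 tested genes of the EDA and NF-κB pathway 10 were higher and 5 lower, with a median of 0.03. Only Nfkbia, the NF-κB inhibitor that NF-κB itself induces, passed with the block. It had 27590.4 and 28950.2 in cKO and 11156 and 27474 in het, so the difference of 0.69 ± 0.48 came almost wholly from the first number (1.31, against 0.08 within the second number; limma, block adjusted p = 0.0224). The ligand gene Eda and the adaptor gene Edaradd, named after their values were seen, differed by -0.10 and 0.03.

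Of 17 tested Hedgehog pathway genes 8 were higher and 9 lower, 0 passed, and the median was -0.03. Cyclin D2 (Ccnd2) differed by 0.46 ± 0.25 (0.63 and 0.29), and no het array reached a cKO array (limma, block adjusted p = 0.0793). Mycn, a growth regulator induced by SHH in several tissues, differed by -0.41 ± 0.36 (-0.65 and -0.17), and cyclin D1 (Ccnd1) by -0.35 ± 0.47 (-0.45 and -0.25).

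Of 19 tested BMP pathway genes 9 were higher and 10 lower, 0 passed, and the median was -0.04. Msx2, a homeobox gene that BMP induces, differed by -0.45 ± 0.41 (-0.81 and -0.09), the receptor gene Bmpr2 by 0.42 ± 0.46 (0.79 and 0.04), and the inhibitory Smad7 by -0.40 ± 0.34 (-0.39 and -0.40).

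Other genes of the follicle epithelium leaned lower: 24 of 30 tested were lower in cKO (80.0%, beside 53.8% of all genes), 0 passed in either fit, and the median was -0.13 (-0.20 within the first number and -0.07 within the second number). Runx1, a transcription factor of follicle stem cells, had 106 and 37.0 in cKO and 236 and 87.0 in het, a difference of -1.18 ± 0.77 (-1.14 and -1.21), with the groups overlapping. Barx2 and Nfatc1, also transcription factors of the follicle, differed mainly within the first number. Barx2 had 50.7 and 113 in cKO and 230 and 115 in het (-2.16 and -0.03), and Nfatc1 had 79.6 and 161 in cKO and 313 and 168 in het (-1.96 and -0.07). The array het_1210 was the highest of the 4 for 16 of these 30 genes (53.3%, beside 42.6% of all genes). Among the 13 placode probe sets het_1210 was highest for 4 (30.8%, beside 35% of all tested), those of Lhx2, Shh, Dkk4 and Gli1, and het_1261 was highest for 7 (53.8%, beside 22.8%).

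**Figure D4:**
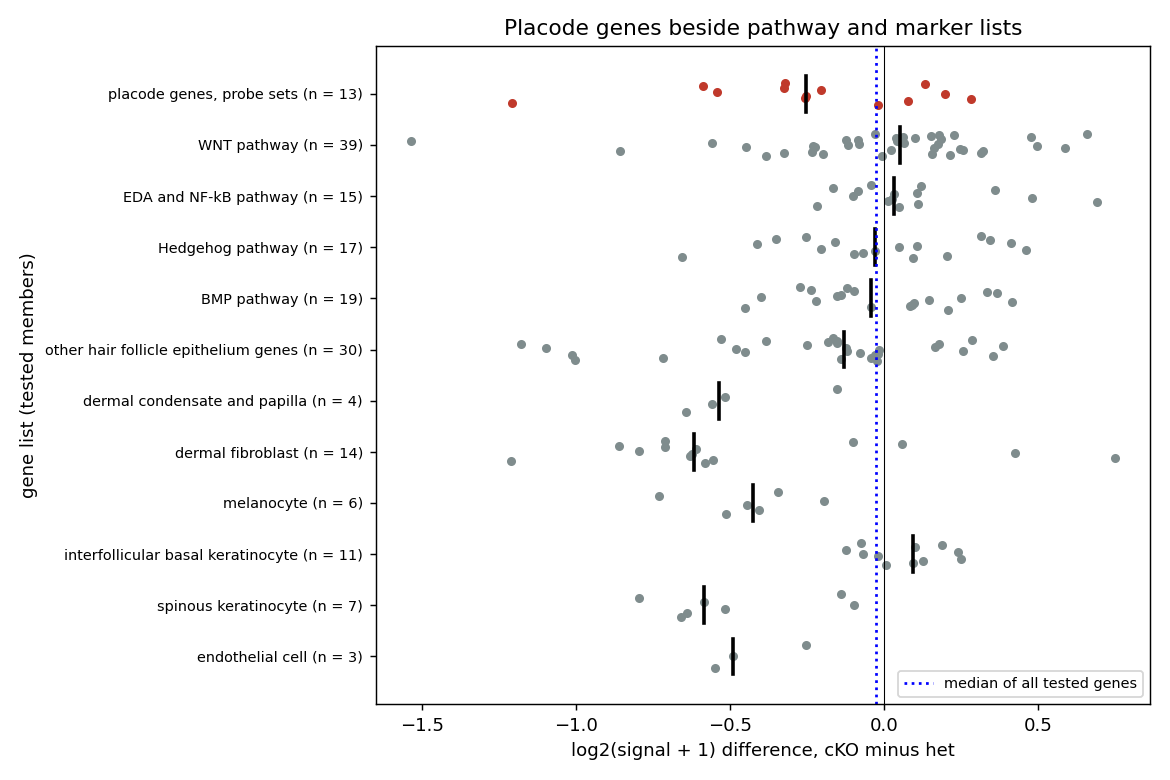
Difference in log2(signal + 1), cKO minus het, of the 13 tested placode probe sets (red) and of the tested genes of each pathway or marker list with at least 3 (grey, brightest probe set per gene); black bars are medians and the dotted line is the median of all tested genes. The median lies at -0.25 for the placode probe sets, at -0.13 for other follicle epithelium genes and at -0.62 for dermal fibroblast markers.

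Markers of other skin cells also lay mostly lower in cKO, as the plot of lists shows. The gate was α6 integrin with YFP switched on by K14-Cre. How far it removed dermal cells and melanocytes was not tested, and some dermal markers were bright. Signals of the dermal fibroblast markers ran from 49.6 (Mfap5 in cKO_1210), under the 65.9 of the filter, to 21841 (Dcn in cKO_1210). Of 15 dermal fibroblast markers 14 were on the array, all above the filter. In cKO 11 were lower (78.6%, beside 53.8% of all genes), with a median of -0.62 (-0.97 and -0.18). With the block 3 passed (21.4%, beside 0.868% of all genes). Thy1, Pdgfra and Dcn were higher on average (0.43, 0.75 and 0.06), Thy1 and Pdgfra within both numbers. The summed signal of the 14 was 56385 and 57073 in cKO and 69299 and 61624 in het. Postn and Dcn were the brightest of them and differed by only -0.10 and 0.06. Of 14 markers of the dermal condensate and papilla, the cells that gather beneath a placode, 4 were tested. All 4 were lower in cKO on average, 3 of them within both numbers (beside 3493 of all 11055 genes). With the block 0 of the 4 passed (beside 0.868% of all genes). The median difference of these 4 was -0.54 (-0.94 and -0.08). Signals summed over all 14, tested or not, came to 1026 and 1049 in cKO and 1746 and 1209.9 in het. The 10 that were not tested were dim. Of these Sox2, a defining marker also listed for Merkel cells, had 23.1 and 17.4 in cKO and 81.2 and 32.2 in het. Gal ran the other way, with 83.0 and 61.6 in cKO and 10.1 and 37.1 in het, as did Fgf10 on average (0.26).

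For spinous keratinocytes 7 of 7 markers lay lower in cKO (beside 53.8% of all genes), at a median of -0.58 (-0.53 and -0.42). With the block 3 of them passed (42.9%, beside 0.868% of all genes). Their summed signal was 125109 and 96382 in cKO and 185457 and 113575 in het. Of 9 melanocyte markers 6 were tested, and each of the 6 was lower in cKO on average (median difference -0.43, with -0.86 and -0.11 within the numbers). Within both numbers 4 of the 6 were lower (beside 3493 of all 11055 genes), and 0 passed with the block. Signals summed over all 9, tested or not, came to 1032 and 881 in cKO and 1732 and 983 in het. The 11 basal keratinocyte markers had a median of 0.09 (0.21 and -0.02), with a summed signal of 179870 and 143313 in cKO and 183918 and 146925 in het. Among tested markers het_1210 was the highest array for 6 of 7 spinous, 5 of 6 melanocyte and 4 of 4 condensate ones. It was highest for 8 of 14 fibroblast and 3 of 11 basal markers, beside 42.6% of all genes. Few markers of other cells passed the filter: 3 of 6 endothelial, 2 of 7 Merkel cell, 2 of 6 immune and 1 of 5 Schwann cell and nerve markers were tested, and all of these were lower in cKO on average. No marker was listed at 0. In the dermal, condensate and melanocyte lists the median was further from 0 within the first number than within the second number. The placode difference was larger in size within the first number for 8 of the 13 (61.5%, beside 66.6% of all tested), Lhx2, Shh and Dkk4 among them. Gli1, Wnt10b, Edar, Sox9 1424950_at and Lef1 1421299_a_at went the other way, as did the placode median (-0.13 and -0.22). The part of these cells in the differences of the placode genes was not tested.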

How the data were processed

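Total RNA of 4 samples was amplified from its 3' end for expression arrays. Per the submitters' processing notes the authors deposited MAS5 signals, an intensity for each probe set that is not log-transformed; the version of MAS5 is unstated. The trimmed mean (2% at each end) was 500.0 on every array, so changes are relative to it, and dim probe sets have wide log2 errors. Precision is limited by there being 2 arrays a group.

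Of 45101 probe sets, the 64 controls were dropped. Names came from the platform annotation, updated by Entrez identifier (34741 of 34945 probe sets with 1 symbol matched; 932 had several symbols and 9160 none). Values were tested as log2(signal + 1) with limma 3.58.1 in R 4.3.3 (lmFit, eBayes with variance trend), two-sided, over 22518 probe sets above the median mean signal. The fit had 2 residual and 3.01 prior degrees of freedom. With the title number as a block it had 1 and 34.4, so it leaned on a variance shared across probe sets. Same-numbered arrays deviated together (correlation 0.755), but no label explains the number, and the 2 pairs do not settle whether it marks shared animals, so the block is an alternative. The pipeline was tested on simulated data. These were drawn from the fit with the block, so the run checks the code and not the calls made here. Figures were drawn with matplotlib 3.10.9.

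The members and the gene lists were chosen with earlier results of these data known. Genes named were all probe sets of the members and, from each pathway list, those that passed, or otherwise the 3 largest differences of 1 sign within both numbers. Of 230 list memberships 218 were on the array.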

Additional observations from a re-analysis of the deposited data

How the results depend on the processing

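Over 16 alternatives, Lhx2, Shh and Wnt10b stayed lower and tested Edar higher in cKO, with ranges when 1 array was left out of -1.89 to -0.52, -0.81 to -0.27, -0.49 to -0.16 and 0.10 to 0.29. Their groups do not overlap, so leaving out 1 array could not turn these signs. The block, the variance trend, the robust prior and the filter leave the difference itself unchanged. Only settings with quantile normalization or median centring could have turned the signs. With the replicate block 194 probe sets passed (82 higher, 112 lower), with the block and a robust prior 84, with the block and quantile normalization 365 (187 higher, 178 lower), with the block and median centring 109 (74 higher, 35 lower) and with the block and no filter 17. With the block and no variance trend 0 passed, and 1505 had an unadjusted p under 0.05. The placode probe sets passed were 1, Lhx2, with the block, with the block and a robust prior (adjusted p = 0.0135) and with the block and quantile normalization (6.12e-04), and 0 in the other settings, quantile normalization without the block among them. The cause of these shifts was not tested. Median centring moved the median of all tested probe sets to 0.11 (-0.01 without it) and that of the placode probe sets to -0.13 (-0.25 without it), with or without the block, and turned Lef1 1421299_a_at to 0.10. Leaving out 1 array gave 0 to 5 probe sets passed (5 without cKO_1210, 3 without cKO_1261), 0 of them placode ones, and a placode median of -0.30 to 0.050. The numbers are then unbalanced between the groups, and single differences ranged from -0.28 to 0.85 for Bmp2, -1.32 to 0.15 for Dkk4, -0.49 to 0.085 for Gli1, -0.032 to 0.30 for Ptch1 1428853_at, -1.11 to 0.60 for Ptch1 1439663_at, -0.15 to 0.30 for Lef1 1454734_at, -0.33 to 0.29 for Lef1 1421299_a_at, -0.68 to 0.039 for Sox9 1424950_at and -0.59 to 0.085 for Sox9 1451538_at.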

Other observations

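Further genes of the follicle epithelium were picked out after their values were seen. Krt79, a keratin of the upper follicle, had signals of 231 and 144 in cKO (cKO_1210 and cKO_1261) and 661 and 204 in het (het_1210 and het_1261). Krt17, a keratin of placodes and the outer sheath, had 11473 and 8048.5 in cKO and 22346 and 8581 in het. Neither passed (limma, block adjusted p = 0.0658 and 0.0950). Tbx1, a transcription factor of follicle stem cells, had 39.5 and 49.1 in cKO and 160.1 and 52.3 in het and was not tested. Sostdc1, an inhibitor of BMP and WNT signals, had 9566 and 6180.0 in cKO and 9926 and 6313 in het, so its values separated by title number and not by genotype.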
